A study of Mus musculus with 6 samples.

Results

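A messenger RNA can end in different places. An alternative last exon (AL) is a terminal exon chosen by splicing instead of another one further down, and a transcript end (TE) is one of several cleavage sites in the same terminal exon. The first kind can change the protein's tail, and the second mostly changes the length of the tail of RNA behind the stop codon. Ptbp1, an RNA-binding protein of pyrimidine tracts, is known chiefly as a repressor of splicing, terminal exons included, whereas cleavage sites are picked by the cleavage and polyadenylation machinery that reads the AATAAA signal. The data described here are the 29196 deposited AL and TE nodes (segments of a gene between neighbouring splice sites or ends) with 20 or more estimated reads in all 6 libraries, 890 AL nodes in 787 genes and 28306 TE nodes in 7858 genes. They were taken from 58249 AL and TE nodes and 323775 nodes of every type. The value of each is Psi, the estimated fraction of transcripts that use the node (0 to 1).

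The cells were a mouse aortic endothelial line immortalised with a doxycycline-switched SV40 gene, expanded in doxycycline and then plated without it. The study compared 3 genotypes: Rescue (the Ptbp1 knockout carrying a human PTBP1 cDNA), KO (Ptbp1 disrupted by CRISPR, a single clone) and WT (the parental line), each with TNF at 30 ng/mL and untreated, with 1 RNA library per group and no replicates. Groups were read from the names of the deposited files, with basal read as WT, because these disagree with the labels for 4 of 6 libraries. Files named Rescue, KO with TNF, KO and WT with TNF belong to samples labelled KO_TNF, WT_TNF, Rescue and KO in that order. Below, Rescue, KO, WT and TNF mean the file names, and counts with the labels' groups are given beside the main ones.

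Ptbp2, a paralogue that Ptbp1 normally silences, stood at 78.8 and 70.3 CPM (counts scaled to a common library total) in the Rescue libraries and at 185 and 216 CPM in the KO libraries, against 36.6 and 38.3 CPM in the WT libraries. Mouse Ptbp1 stood at 192 and 180 CPM in Rescue and at 410 and 384 CPM in KO, against 409 and 339 CPM in WT. Its RNA was thus not lower in KO and gave no check of which libraries are KO. It was lowest in the libraries named Rescue, which are labelled Rescue_TNF and KO_TNF. The TNF target Ccl2 was at 368 to 1973 CPM in the libraries named TNF, against 32.8 to 52.3 CPM in those named untreated. Totals were 19598779 to 21626824 expected counts per library. The endothelial markers Pecam1, Tie1, Cldn5, Emcn and Esam were under 1 CPM in all 6 libraries, and the 10 endothelial markers summed to 2.53 to 7.12 CPM. The 12 smooth muscle and fibroblast markers summed to 11258 to 27627 CPM, 4 of the 5 blood markers listed to 10.2 to 16.2 CPM and the 4 epithelial markers to at most 1.12 CPM. Most of the smooth muscle and fibroblast sum was Col1a1 (6368 to 14911 CPM) and Col1a2 (3417 to 10483 CPM), while Myh11 was at 0.15 to 1.02 CPM. One of the fibroblast markers, Thy1, was at 0.1 and 0.18 CPM in Rescue and at 0.1 and 0.19 CPM in KO, against 35.4 and 62.5 CPM in WT. Another listed marker, Cnn1, was at 0.1 and 0.6 CPM in Rescue and at 13.12 and 20.55 CPM in KO, against 12.66 and 32.73 CPM in WT. KO is a single clone, so loss of Ptbp1 and the choice of clone cannot be told apart for KO against WT. For Rescue against KO, add-back of PTBP1 and other differences between the lines cannot be told apart either. With 1 library per group, each p-value below measures how unequal an effect was across the levels of the other factor. Fewer cells of a type and less RNA per cell cannot be told apart in such bulk libraries.

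Of the genes whose terminal exons differed between KO and WT, 4 with protein tails known to differ by end are shown here as the coding bases of each last exon (5′ to 3′, GENCODE vM21 transcripts on GRCm38, all from the minus strand, stop codon in capitals). Ncam1, a neural cell adhesion molecule, ends in a lipid-anchored (GPI) form at chr9:49517506-49517582 or in a membrane-spanning form at chr9:49505443-49505563. Cdc42, a small GTPase of the actin cytoskeleton, has a brain-enriched end at chr4:137322530-137322619 and a common end at chr4:137321103-137321192. Lamp2, a lysosomal membrane protein, has 3 ends for its membrane-spanning tail, at chrX:38421712-38421851 (LAMP-2B), chrX:38405432-38405571 (LAMP-2A, the form known for chaperone-mediated autophagy) and chrX:38402139-38402281 (LAMP-2C, known in autophagy of nucleic acids). Masp1, a protease gene of the lectin complement pathway, has a short coding form that ends at chr16:23480088-23480140, and the human gene makes a short form without the protease domain.
Ncam1-201, GPI-anchored end: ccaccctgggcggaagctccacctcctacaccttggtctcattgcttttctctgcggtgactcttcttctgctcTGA
Ncam1-202, transmembrane end: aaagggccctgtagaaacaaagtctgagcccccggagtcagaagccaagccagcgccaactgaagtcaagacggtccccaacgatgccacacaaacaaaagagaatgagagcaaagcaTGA
Cdc42-201, brain-enriched end: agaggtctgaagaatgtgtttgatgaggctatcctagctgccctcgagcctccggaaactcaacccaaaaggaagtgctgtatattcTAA
Cdc42-202, common end: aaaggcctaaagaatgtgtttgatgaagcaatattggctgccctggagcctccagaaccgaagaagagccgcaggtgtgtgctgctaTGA
Lamp2-202, LAMP-2B end: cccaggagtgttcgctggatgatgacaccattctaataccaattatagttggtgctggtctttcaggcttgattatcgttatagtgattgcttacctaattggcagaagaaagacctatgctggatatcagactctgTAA
Lamp2-201, LAMP-2A end: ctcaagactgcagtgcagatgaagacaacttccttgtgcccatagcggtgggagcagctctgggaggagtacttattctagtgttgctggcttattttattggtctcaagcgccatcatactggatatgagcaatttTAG
Lamp2-203, LAMP-2C end: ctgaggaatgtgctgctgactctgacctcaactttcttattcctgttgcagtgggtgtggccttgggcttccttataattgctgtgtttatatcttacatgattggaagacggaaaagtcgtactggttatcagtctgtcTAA
Masp1-204, short form end: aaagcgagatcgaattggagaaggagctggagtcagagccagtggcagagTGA
The 2 Cdc42 tails have 90 bases each and share 59 of them (65.6%). The LAMP-2A and LAMP-2B tails share 75 of 140 bases (53.6%).

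Most members sat near one limit of Psi. Of the 890 AL nodes, 760 had a mean Psi under 0.05 and 44 over 0.95, which left 86 nodes in 83 genes to be tested. Of the 28306 TE nodes, 11261 lay under 0.05 and 3466 over 0.95, and 13579 in 5581 genes were tested. TE nodes came as 9281 runs of neighbouring ends in which Psi summed to 1 within 0.02, so ends of one run share reads and move against each other, and 4382 runs had 2 ends. Of the tested AL nodes, 85 began at an annotated last exon, 54 of a protein-coding transcript and 31 of a non-coding one, and 51 held coding bases. The signal AATAAA lay in the last 50 bases before the annotated end for 44 of 85 AL nodes (51.8%) and for 5855 of 13188 TE nodes with an annotated end (44.4%). With ATTAAA counted where AATAAA was absent, the shares were 64.7% and 56.1%. Only the transcript's strand was searched for both motifs. Nodes just inside the limit of 20 reads (20 to 24 in the poorest library) numbered 12 AL and 358 TE, and those just outside (15 to 19) numbered 11 AL and 465 TE. The median difference within a genotype was 0.056 Psi just inside and 0.057 just outside for AL nodes, and 0.119 and 0.126 for TE nodes.

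KO and WT libraries stood apart at a small set of alternative last exons, none of which passed limma over all node types. The KO libraries lay at least 0.1 Psi beyond the WT libraries for 10 of 86 AL nodes (11.6%), 6 of them higher and 4 lower, against a background of 8.11% over all 26446 nodes of every type (4.11% higher and 4% lower). The higher ones were in Ncam1, Masp1, Cdc42, Pik3r5, Snx12 and Rpap2, and the lower ones in Lamp2, Gna13, Ttc17 and Styk1. Cassette exons (internal exons kept or skipped by splicing) stood apart at the same share, 398 of 3430 (11.6%). By limma on the log2 odds of Psi over all node types, 0 of 26446 nodes (0%) passed an adjusted p of 0.05 with a difference of 0.1 Psi. An unadjusted p under 0.05 was found for 14 AL nodes (16.3%), against 7.54% of all nodes and 15.1% of cassette exons. A further pair of fits was added after the values were seen, and 5 of the 10 exons (Lamp2, Pik3r5, Snx12, Rpap2 and Styk1) were named then. A fit restricted to the 6 node types that rest on splice junctions called 3 of 86 AL nodes, against 97 of its 8339 nodes (1.16%). The same fit weighted by the sampling error of each Psi called 8 of 86, against 349 of 8339 nodes (4.19%). Of the 3430 cassette exons, these fits called 79 and 265 in that order. The variance borrowed from other nodes had 13.4 prior degrees of freedom in the weighted fit, beside 2 residual ones. In the fit over all node types it had 0.843. Under the labels' groups, 0 AL nodes stood apart (background 5.89%) and the weighted fit called 0 AL nodes and 0% of all its nodes, while all 10 differences changed sign.

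**Figure D1:**
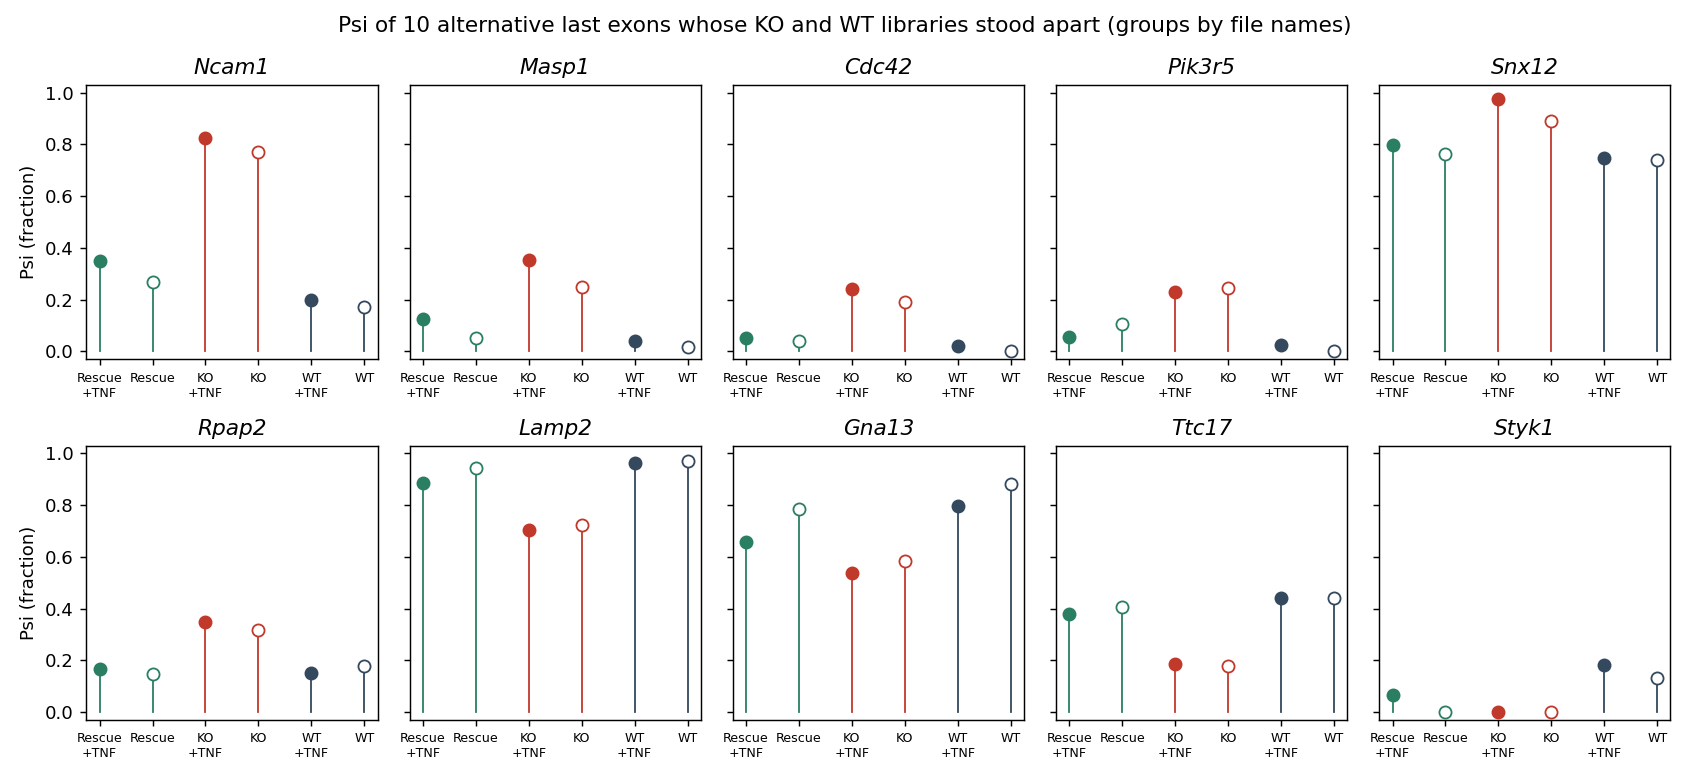
Psi (fraction of transcripts, vertical axis from 0 to 1) of the 10 alternative last exons whose KO and WT libraries stood at least 0.1 apart, 1 point per library, filled with TNF and open untreated. In Ncam1 the KO libraries stood at 0.823 and 0.77, against 0.2 and 0.17 in WT, with Rescue at 0.351 and 0.269, and in Styk1 Rescue lay nearer to KO.

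The Ncam1 exon of the GPI-anchored form (chr9:49517278-49517582, 305 bases) moved furthest. Its Psi was 0.351 with TNF and 0.269 untreated in Rescue, and 0.823 and 0.77 in KO, against 0.2 and 0.17 in WT. Junction reads were counted at the shared donor (the splice site before the choice), with 40 of 114 and 42 of 156 reads in Rescue, and 177 of 215 (82.3%, 95% Wilson interval 76.7 to 86.8) and 207 of 269 (77%, 71.6 to 81.6) in KO, against 25 of 125 (20%, 13.9 to 27.9) and 30 of 177 (16.9%, 12.1 to 23.2) in WT. The shares of the 3 genotypes did not overlap, and Rescue lay nearer to WT than to KO. By their intervals, Rescue (26.9 to 44.2 with TNF and 20.6 to 34.4 untreated) overlapped WT and lay below KO. The difference of KO and WT was 0.611 Psi, or 4.08 ± 0.31 log2 odds in the weighted limma fit (adjusted p = 4.6e-07, called without any 1 library), with an adjusted p of 0.0846 by limma over all node types. Expression of the whole gene was higher in KO by 0.54 ± 0.09 on the log2 scale (edgeR, adjusted p = 0.0123). These intervals cover counting error only.

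The brain-enriched Cdc42 exon (chr4:137321762-137322619, 858 bases) was the best covered of the 10, with 757 to 1260 reads. Psi was 0.05 with TNF and 0.0392 untreated in Rescue, and 0.242 and 0.192 in KO, against 0.0218 and 0 in WT. By junction reads, 51 of 1021 and 44 of 1124 joined it in Rescue, and 304 of 1255 (24.2%, 21.9 to 26.7) and 223 of 1164 (19.2%, 17 to 21.5) in KO, against 24 of 1100 (2.18%, 1.47 to 3.23) and 12 of 769 (1.56%, 0.895 to 2.71) in WT. The deposited Psi of 0 in untreated WT therefore stood beside 12 junction reads. KO libraries were higher than all 4 others, and the KO intervals overlapped none of the rest. The weighted limma fit gave 3.91 ± 0.52 log2 odds (adjusted p = 0.000184), which became 0.266 without the WT library with TNF and stayed under 0.05 without any other. By limma over all node types the adjusted p was 0.607. The level of the gene itself differed little, by 0.1 ± 0.08 on the log2 scale (edgeR, adjusted p = 0.361).

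In Lamp2 the LAMP-2C exon set KO apart. The Psi of the LAMP-2A node (chrX:38405062-38405571), read against the exon behind it, was 0.884 with TNF and 0.942 untreated in Rescue, and 0.705 and 0.725 in KO, against 0.963 and 0.969 in WT. Counted from the donor that all 3 ends share, LAMP-2C took 25 of 716 and 14 of 772 reads in Rescue, and 79 of 661 (12%, 9.7 to 14.6) and 82 of 739 (11.1%, 9.03 to 13.6) in KO, against 14 of 1033 (1.36%, 0.809 to 2.26) and 8 of 791 (1.01%, 0.513 to 1.98) in WT. LAMP-2A took 26.5% and 29.7% in Rescue, and 28.4% and 29.2% in KO, against 35.1% and 31.6% in WT, and LAMP-2B took 70% and 68.5%, and 59.6% and 59.7%, against 63.5% and 67.4%. The LAMP-2C share thus separated KO from the other genotypes with no overlap, while the LAMP-2A shares of KO lay within those of Rescue. The LAMP-2B shares were lower in KO than in every other library. Their intervals in KO (55.8 to 63.3 with TNF and 56.1 to 63.2 untreated) overlapped that of WT with TNF (60.5 to 66.4). The node differed by -3.46 ± 0.45 log2 odds (weighted limma, adjusted p = 0.000145, called without any 1 library), with an adjusted p of 0.219 over all node types.

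The short form of Masp1 was used more in KO. Its exon (chr16:23479309-23480140) had a Psi of 0.123 with TNF and 0.053 untreated in Rescue, and 0.354 and 0.248 in KO, against 0.0399 and 0.0177 in WT. Junction reads numbered 71 of 578 and 49 of 922 in Rescue, and 184 of 562 and 162 of 755 in KO, against 12 of 301 and 9 of 509 in WT. In each genotype the library with TNF had the higher share, and the KO libraries stood above all others. KO differed from WT by 3.88 ± 0.47 log2 odds (weighted limma, adjusted p = 6.97e-05, called without any 1 library, 0.107 over all node types), and the gene as a whole was higher in KO by 0.63 ± 0.15 on the log2 scale (edgeR, adjusted p = 0.0316).

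**Figure D2:**
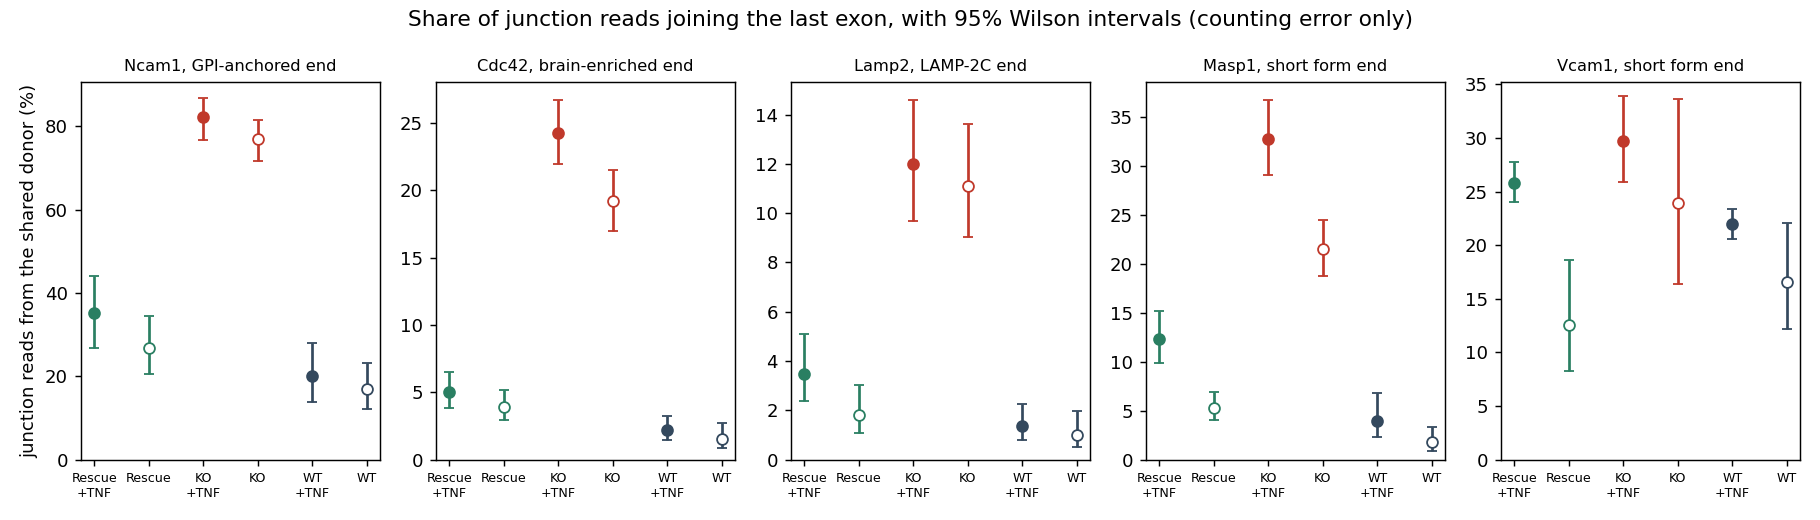
Percent of junction reads from the shared donor that join the named last exon, 1 point per library with its 95% Wilson interval, filled with TNF and open untreated; each panel has its own vertical scale from 0. The KO libraries stood above WT and Rescue in Ncam1, Cdc42, Lamp2 (11.1% and 12% for LAMP-2C) and Masp1, while in Vcam1 the genotypes overlapped.

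The other members of this set rested on fewer reads. Ttc17, a protein of actin organisation and cilia, used a last exon (chr2:94327937-94328485) in 31 of 82 and 34 of 84 junction reads in Rescue, and 13 of 70 and 13 of 73 in KO, against 38 of 86 and 40 of 91 in WT. Gna13, an alpha subunit of heterotrimeric G proteins, used a last exon (chr11:109380215-109380475) in 44 of 68 and 33 of 42 reads in Rescue, and 30 of 56 and 28 of 48 in KO, against 101 of 127 and 60 of 68 in WT. Both were lower in KO than in any other library. Pik3r5, a regulatory subunit of PI3-kinase gamma, used a non-coding end (chr11:68439800-68440372) in 11 of 195 and 3 of 28 reads in Rescue, and 24 of 104 and 11 of 45 in KO, against 6 of 263 and 0 of 36 in WT. A count of 0 of 36 allows a share of up to 9.64% by the Wilson interval, so only its library with TNF limits the WT level closely. Snx12, a sorting nexin of endosomes, used a last exon (chrX:101211959-101212346) in 27 of 41 and 23 of 55 reads in Rescue, and 30 of 33 and 21 of 27 in KO, against 33 of 58 and 22 of 38 in WT. The weighted limma fit called these 4 nodes for KO against WT (adjusted p 0.0171 for Ttc17, 0.0259 for Gna13, 0.0182 for Pik3r5 and 0.0199 for Snx12), and each lost the call without the WT library with TNF, at 0.104, 0.139, 0.429 and 0.133. Without the KO library with TNF they were at 0.126, 0.0739, 0.307 and 0.201. Without untreated KO, Ttc17 (0.155), Gna13 (0.235) and Pik3r5 (0.138) lost it, and without untreated WT, Ttc17 (0.0671) and Gna13 (0.0905).

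Rpap2, which dephosphorylates RNA polymerase II, and Styk1, a kinase-like membrane protein, were not called by any of these limma fits (weighted adjusted p = 0.27 and 0.213). The Psi of Rpap2 was 0.166 and 0.146 in Rescue, and 0.347 and 0.316 in KO, against 0.152 and 0.178 in WT, and that of Styk1 was 0.0667 and 0 in Rescue, and 0 in both KO libraries, against 0.182 and 0.13 in WT. Only 1 to 3 junction reads per library joined that Rpap2 exon from its main donor, and 0 to 5 joined the Styk1 exon. The levels of the 10 genes did not move one way. By edgeR, Ncam1 and Masp1 were higher in KO, Lamp2 (-0.42 ± 0.1, adjusted p = 0.0321), Ttc17 (-0.31 ± 0.07, 0.0323) and Rpap2 (-0.61 ± 0.12, 0.0182) were lower, and the other 5 did not pass.

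Add-back of human PTBP1 was examined in Rescue against KO, which shares the KO libraries with the comparison above. Rescue and KO stood apart for 8 of 86 AL nodes (9.3%, background 8.06%, cassette exons 10.1%). The 2 higher in Rescue were Ttc17 and Lamp2 (background 3.99%), and the 6 lower were Ncam1, Masp1, Cdc42, Rpap2, Pik3r5 and Mospd2 (background 4.07%). No AL node passed limma over all node types (0 of 26446, or 0%), and 10 had an unadjusted p under 0.05 (background 7.46%). Over junction types, limma called 2 of 86 AL nodes, against 47 of 8339 nodes (0.564%). With weights it called 4 of 86, against 311 of 8339 nodes (3.73%) and 238 of 3430 cassette exons. The 4 were Ncam1 at -3.13 ± 0.29 log2 odds (adjusted p = 4.67e-06), Cdc42 at -2.56 ± 0.29 (3.46e-05), Masp1 at -2.23 ± 0.25 (4.26e-05) and Lamp2 at 2.03 ± 0.38 (0.00429). The first 3 were called without any 1 library, and Lamp2 lost the call without untreated KO (0.148). Mospd2, a protein of membrane contact sites, had a Psi of 0.412 and 0.346 in Rescue and of 0.862 and 0.515 in KO, against 0.549 and 0.409 in WT, and its junction shares overlapped, at 28 of 41 and 33 of 44 in Rescue and 25 of 29 and 34 of 45 in KO, against 42 of 48 and 26 of 37 in WT. Grouped as labelled, 2 AL nodes stood apart (background 5.47%) and the weighted fit again called 0% of all its nodes.

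Between Rescue and WT, no fit called an AL node. The groups stood apart for 2 of 86 (2.33%, background 6.81%, cassette exons 3.27%, TE nodes 8.15%). The higher one was Gm16867, at 0.234 and 0.203 in Rescue against 0.069 and 0.0247 in WT (background 3.39%), although only 1 of 132 and 2 of 92 junction reads from its donor joined that exon in Rescue, against 1 of 141 and 0 of 72 in WT. The lower one was Prune2, at 0 and 0.0635 in Rescue against 0.193 in both WT libraries (background 3.41%). All limma fits called 0 AL nodes, with 7 at an unadjusted p under 0.05 (background 6.3%), and over junction types 0.072% of all nodes passed without weights and 0.36% with them. Among those 7, Masp1 was 0.0592 Psi higher in Rescue (unadjusted p = 0.00883), Ncam1 0.125 higher (0.0267) and Pik3r5 0.0703 higher (0.0408), and Lamp2 was lower by 0.053 (difference -0.053, 0.0391). The clathrin adaptor subunit Ap1s2 stood at 0.167 and 0.138 in Rescue, against 0.372 and 0.257 in WT, and Iqcb1, a ciliary protein, at 0.186 and 0.268, against 0.36 and 0.412, with adjusted p of 0.639 and 0.81 by limma. By the labels 1 AL node stood apart (background 5.57%).

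No alternative last exon passed a test for TNF. No AL node stood apart between libraries with TNF and untreated libraries (0 of 86, background 1.15%, cassette exons 0.292%). Every limma fit called 0 AL nodes (the weighted one called 0.048% of all its nodes), and 4 had an unadjusted p under 0.05 (background 4.14%). The 4 largest differences of one sign in all 3 genotypes were 0.184 Psi in Mospd2, 0.12 in the protocadherin Pcdh7, -0.114 in Cmss1 and -0.0973 in Ppih, a spliceosomal cyclophilin. Each had an adjusted p of 0.814 by limma. By junction reads, Mospd2 went the other way in Rescue, at 28 of 41 with TNF against 33 of 44 untreated. Its junction share was higher with TNF in KO (25 of 29 against 34 of 45) and in WT (42 of 48 against 26 of 37). Vcam1, the adhesion molecule of leukocyte capture, has a short coding form with a GPI anchor in the mouse, and its last exon (chr3:116122280-116123793) was looked at after its values were seen. Reads into it were 515 of 1993 with TNF against 20 of 159 untreated in Rescue, 146 of 491 against 22 of 92 in KO, and 714 of 3247 against 36 of 217 in WT. The share was higher with TNF in 3 of 3 genotypes, at 22 to 29.7% against 12.6 to 23.9%, and the groups overlapped (difference 0.0813 Psi, limma adjusted p = 0.814). Vcam1 as a whole was higher with TNF by 3.21 ± 0.34 on the log2 scale (edgeR, adjusted p = 0.01).

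The Psi of transcript ends differed widely between the libraries of one genotype. The median difference between the library with TNF and the untreated library was 0.06 to 0.062 Psi for TE nodes and 0.044 to 0.047 for AL nodes. It reached 0.5 Psi at 935 to 964 tested TE nodes per genotype (6.89% to 7.1%) and at 0 AL nodes, and 202 to 218 TE nodes per genotype went from 0.05 or less to 0.95 or more, or the reverse. TE Psi was exactly 0 or 1 in 11.8% of values, against 4.26% for AL nodes. The same Psi other than 0 or 1 was listed in 3 or more libraries for 1099 TE nodes (8.09%), and for 0 AL nodes. TE nodes had a median of 382 reads, against 72 for AL nodes. Transcript starts, the matching node type at the 5′ end, varied likewise, with differences of 0.5 Psi at 9.54% to 11% of 4528 tested nodes per genotype, 21.2% of values at exactly 0 or 1 and a median of 78 reads.

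**Figure D3:**
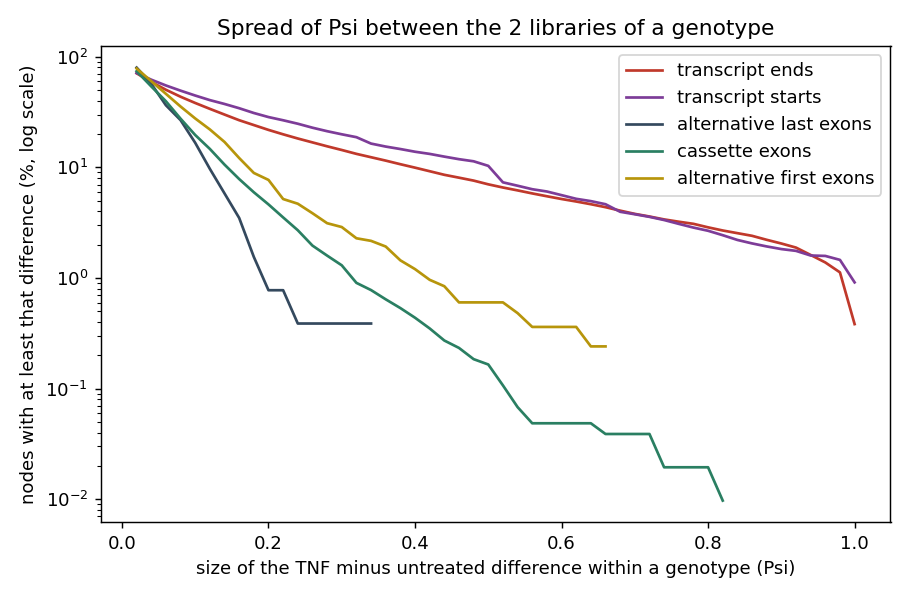
Percent of tested nodes (log scale) whose Psi differs by at least the value on the horizontal axis between the library with TNF and the untreated library of one genotype, over the 3 genotypes. The curves of transcript ends and transcript starts run on to a difference of 1, while that of alternative last exons reaches 0 at 0.36, with cassette exons and alternative first exons between them.

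The KO and WT difference could be taken with TNF and again untreated, from pairs that share no library. Over nodes, the differences had a Pearson r of 0.71 for the 86 AL nodes and 0.042 for the 13579 TE nodes, given as a description since nodes of a gene and of a run share reads. Of 22 AL nodes with a difference of 0.1 or more in the untreated pair, 13 (59.1%) had one of the same sign and at least 0.1 with TNF, against 1514 of 5340 TE nodes (28.4%). At 0.2 or more this held for 6 of 6 AL nodes and 655 of 3040 TE nodes (21.5%). For transcript starts the r was 0.061, and for cassette exons it was 0.565. The same r for Rescue against KO was 0.639 for AL nodes, 0.545 for cassette exons and 0.061 for TE nodes.

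**Figure D4:**
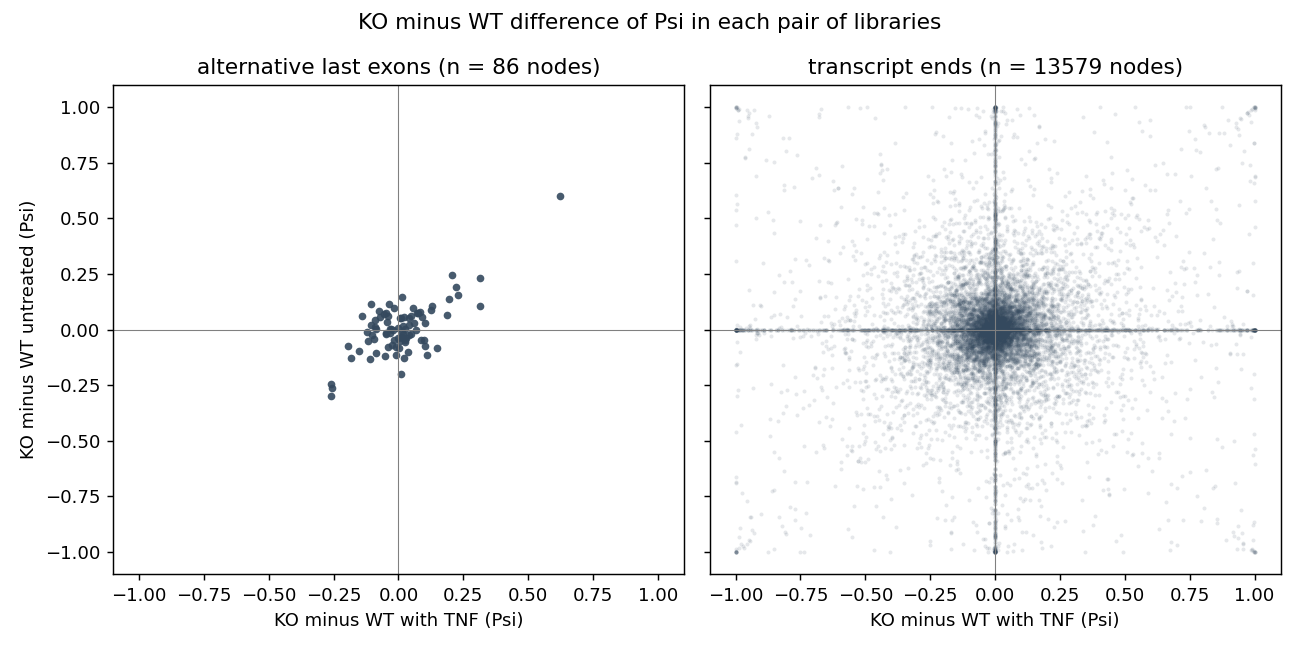
KO minus WT difference of Psi in the pair of libraries with TNF (horizontal) and in the untreated pair (vertical), 1 point per tested node, on common scales. Alternative last exons (n = 86) follow the diagonal, with Ncam1 at the upper right, and transcript ends (n = 13579) spread on all sides and along both axes.

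For TE nodes, KO and WT stood apart at 1093 of 13579 (8.05%; background 8.11%), 540 higher and 553 lower. Rescue and KO stood apart at 1119 (8.24%; background 8.06%), and Rescue and WT at 1107 (8.15%; background 6.81%). Libraries with TNF and untreated libraries stood apart at 189 (1.39%; background 1.15%), 93 higher (background 0.56%) and 96 lower (background 0.586%). The shares were near the background, of which TE nodes are the larger part. Regrouped by the labels, the numbers were 956, 922, 1008 and 192, against backgrounds of 5.89%, 5.47%, 5.57% and 1.19%. By limma over all node types 0 TE nodes were called in any comparison, with 874 (6.44%; background 7.54%), 953 (7.02%; background 7.46%), 902 (6.64%; background 6.3%) and 565 (4.16%; background 4.14%) at an unadjusted p under 0.05. With 50 or more reads required, limma called 30, 18, 27 and 0 of 11928 TE nodes (0.252%, 0.151%, 0.226% and 0%), against 0.255%, 0.151%, 0.208% and 0% of all 19203 nodes then tested. With 100 or more it called 33, 17, 21 and 0 of 10166 (0.325%, 0.167%, 0.207% and 0%), against 0.341%, 0.178%, 0.206% and 0% of all 14073 nodes. These shares too were near the background.

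The TE nodes with the largest differences between genotypes were full switches between ends of one run, many of them close together. In Parp6, an ADP-ribosyltransferase, Psi of one end (chr9:59650138-59650267) was 1 in both Rescue libraries and 0 in both KO libraries, against 1 in both WT libraries (limma adjusted p = 0.0535 for KO against WT and 0.0534 for Rescue against KO). That end lies 344 bases into the run, and the ends used in KO lie at 346 and 362 bases. Exosc7, an RNA exosome subunit, differed in the same manner between ends at 229 and 231 bases, Arhgap45, a GTPase-activating protein, between 731 and 737, and the ubiquitin ligase gene Shprh between 1731 and 1790, with Psi of the nearer end at 0 in both KO libraries and 1 in both WT libraries in each of the 3 (limma adjusted p = 0.684, 0.692 and 0.0647). In Rescue their Psi was 1 and 0.0001 in Exosc7, 0.0073 and 1 in Arhgap45 and 0 and 0.0135 in Shprh, with no common direction. For Rescue against KO the rule also named Fbxw17, Zfp341 and Rhbdd3, with ends at 466 and 472, 1155 and 1198, and 292 and 294 bases (adjusted p = 0.699, 0.677 and 0.075 by limma). For Rescue against WT it named Trim12a, Oas1b, Krt80 and again Rhbdd3, with ends at 489 and 492, 740 and 745, 1717 and 1725, and 292 and 294 bases. Krt80, a keratin, had the smallest adjusted p of these, at 0.054 for Rescue against WT.

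Position was therefore summarised per run as the mean end, the Psi-weighted distance from the start of the run, a measure added after the values were seen. Among 615 runs with a TE node apart between KO and WT, the mean end shifted by less than 10 bases in 132 (21.5%) and by 100 bases or more in 317, 153 towards longer and 164 towards shorter ends in KO. The median log2 ratio of the mean end over all 9281 runs was 0 in every comparison. Mean ends stood apart by 2-fold between KO and WT in 20 runs (0.215%), 7 longer and 13 shorter in KO. The numbers were 31 (0.334%) between Rescue and KO, 21 (0.226%) between Rescue and WT and 5 (0.0539%) between TNF and untreated. Single libraries of one genotype differed by that much in 129 to 159 runs. With the labels' groups the counts were 23, 18, 20 and 2.

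In the 20 runs, Rescue had no common side. On the log2 scale both Rescue libraries lay nearer to KO in 8 runs and nearer to WT in 4, and 1 lay nearer to each in 8. A few of the runs are given here, chosen after their values were seen. Smug1, a uracil-DNA glycosylase, had a mean end at 344 and 323 bases in Rescue, and 2895 and 2855 in KO, against 291 and 571 in WT. Slc35d2, a nucleotide sugar transporter, had one at 133 and 161 bases in Rescue, and 1273 and 1290 in KO, against 145 and 137 in WT, on 20 to 99 reads. Pde7a, a cyclic AMP phosphodiesterase, moved the other way, with 3305 and 3345 bases in Rescue, and 362 and 439 in KO, against 2746 and 2448 in WT, on 479 to 916 reads. In Btbd9 both Rescue libraries lay near KO, at 162 and 258 bases in Rescue, and 172 and 169 in KO, against 3116 and 3194 in WT, on 290 to 496 reads. The kinase gene Cdc42bpa was like it, with 396 and 477 bases in Rescue, and 421 and 503 in KO, against 1303 and 1127 in WT, on 1090 to 1700 reads. In Rab22a, a small GTPase of endosomes, the Rescue libraries parted, at 2789 bases with TNF and 6305 untreated in Rescue, and 6297 and 6300 in KO, against 2642 and 2624 in WT, on 2080 to 3020 reads.

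Of the 5 runs apart between TNF and untreated, also named after their values were seen, 4 were shorter with TNF and 1 longer. In Arid4b, a chromatin regulator, the mean end was at 478 bases with TNF against 1757 untreated in Rescue, 406 against 1757 in KO and 494 against 1757 in WT, on 258 to 370 reads. The near end (chr13:14197606-14197754) had a Psi of 0.796, 0.84 and 0.786 in the 3 libraries with TNF, against 0 in each untreated library (limma adjusted p = 0.214, unadjusted 1.76e-05). Adat3, a subunit of a tRNA deaminase, ended at 361 bases with TNF against 1341 untreated in Rescue, 387 against 1184 in KO and 420 against 1200 in WT. Its near end (chr10:80606314-80606435) had a Psi of 0.804, 0.782 and 0.713 with TNF, against 0 in each untreated library (adjusted p = 0.214). In both genes the groups with and without TNF did not overlap, which the choice of these runs required. The gene's level did not pass the test (edgeR adjusted p = 0.0536 for Arid4b and 0.289 for Adat3). The 3 untreated libraries were listed with the same Psi at every Arid4b end (0, 0.9905, 0.0095 and 0), on 323 to 370 reads. Such repeated values were counted above, and they give no spread for the untreated group. Mterf4, of mitochondrial ribosome assembly, ended at 743 to 756 bases with TNF against 2017 to 2374 untreated. Its reads were fewer with TNF in every genotype, at 217 against 933 in Rescue, 140 against 772 in KO and 398 against 5080 in WT. The part of the number of reads in this shift was not tested. Sult6b1 ended at 163 to 185 bases with TNF against 803 to 1279 untreated, on 22 to 45 reads in a gene at 0.51 to 1.26 CPM. Mthfsd ended at 3619 bases in all 3 libraries with TNF, against 943 to 1453 untreated.

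**Figure D5:**
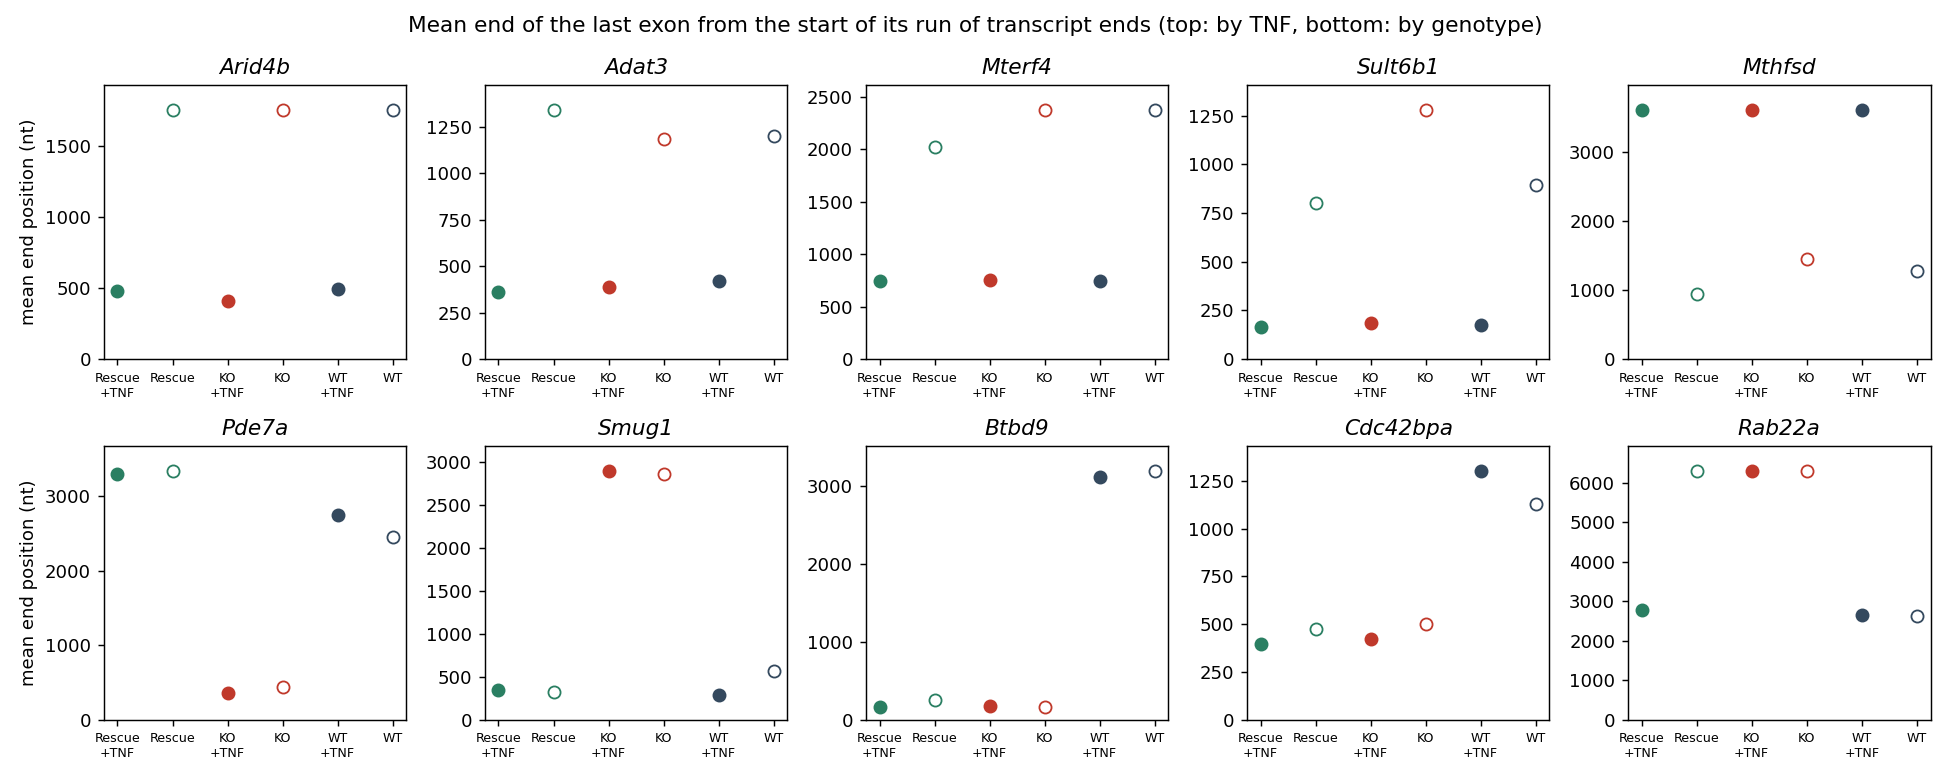
Mean end of the last exon, in bases from the start of its run of transcript ends (vertical axis from 0, scaled per panel), 1 point per library, filled with TNF and open untreated. In the top row the 3 filled points stand apart from the 3 open ones, and in the bottom row KO stands apart from WT, with Rescue at the WT side in Pde7a and Smug1, at the KO side in Btbd9 and Cdc42bpa and split in Rab22a (over all 20 such runs 4, 8 and 8).

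Some other full switches with TNF spanned few bases. They included Rasl11b, a small GTPase (1364 and 1373 bases), Ppp1r16a, a phosphatase regulator (622 and 618 bases), and Zfp825 (1094 and 1097 bases), with adjusted p of 0.454, 0.454 and 0.214 by limma. Nfkbie, an inhibitor of NF-kB that TNF induces, had an end (chr17:45562070-45563166) at a Psi of 0.0682, 0.235 and 0.371 with TNF in Rescue, KO and WT, against 0.991 in each untreated library, with the alternative 3 bases further on (limma adjusted p = 0.534). Its level was 30.4 to 142 CPM with TNF, against 7.94 to 12.5 CPM untreated, and the part of the number of reads in this difference was not tested.

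Of 20 genes known for alternative ends, a list chosen from general knowledge, 14 had members, 3 AL and 57 TE nodes, of which 18 were tested. KO and WT stood apart at 4 of them (background 8.11%), the Cdc42 exon described above, 1 end of Tpm1 and 2 ends of Cald1 that mirror each other and so are 1 change. Rescue and KO stood apart at 1 (Cdc42; background 8.06%), Rescue and WT at 1 (Tpm1; background 6.81%) and TNF and untreated at 0 (background 1.15%). The Tpm1 end, in a tropomyosin of actin filaments, had a Psi of 0.618 and 0.84 in Rescue, and 0.513 and 0.619 in KO, against 0.406 and 0.375 in WT. It rested on 116 and 76 reads in Rescue, and 457 and 332 in KO, against 62 and 54 in WT. The Cald1 ends apart rested on 51 and 49 reads in Rescue, and 121 and 131 in KO, against 36 and 21 in WT. The near end of Tpm3 was at 0.918 and 0.926 in Rescue, and 0.914 and 0.886 in KO, against 0.884 and 0.907 in WT. For Elavl1, the RNA-binding protein HuR, the near end was at 0.912 and 0.907 in Rescue, and 0.936 in both KO libraries, against 0.94 and 0.912 in WT. Thra, a thyroid hormone receptor, used its near end at 0.371 in KO with TNF and at 0.19 in untreated Rescue, and was listed at 0 in the other 4 libraries. The cleavage factor gene Pcf11 had its near end at 0.629 and 0.39 in Rescue, and 0.534 and 0.558 in KO, against 0.561 and 0.467 in WT, with the groups overlapping.

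The cleavage and polyadenylation genes themselves were tested as 24 genes by edgeR over 12729 genes. Between KO and WT 2 were higher and 3 lower (background 33% of genes called), with a list median of 0.08 against 0 over all genes on the log2 scale. Nudt21, the cleavage factor subunit known for favouring distal ends, had 61.4 and 58 CPM in Rescue, and 74.6 and 75.5 CPM in KO, against 53.8 and 52.3 CPM in WT (KO against WT 0.51 ± 0.07, adjusted p = 0.00861, and Rescue against KO -0.41 ± 0.07, adjusted p = 0.0237). Its libraries did not overlap between genotypes. Cpsf2 rose (0.35 ± 0.08, adjusted p = 0.0315), and Cpsf1 (-0.29 ± 0.07, 0.0285), Fip1l1 (-0.58 ± 0.08, 0.00835) and the poly(A)-binding protein Pabpc1 (-0.5 ± 0.11, 0.025) fell in KO by edgeR. Between Rescue and KO, Cpsf1 (0.41 ± 0.07, 0.0219) and Fip1l1 (0.41 ± 0.08, 0.0291) rose and Nudt21 and Cstf2t (-0.29 ± 0.07, 0.0431) fell (background 20.4%). Between Rescue and WT, Cstf2 (0.39 ± 0.09, 0.0402) and Papola, the poly(A) polymerase (0.27 ± 0.07, 0.0451), rose and Pabpc1 (-0.63 ± 0.11, 0.0189) fell (background 24.6%). With TNF, Pabpc1 (0.61 ± 0.09, 0.0163), Cpsf2 (0.37 ± 0.07, 0.0244), Pabpn1 (0.33 ± 0.07, 0.0347) and Xrn2, the nuclease of transcription termination (0.33 ± 0.06, 0.0216), rose and none fell (background 22%). With the labels' groups 0 of the 24 passed in any comparison, nor did any of the 12729 genes (0%). Leaving out 1 library moved these counts, and also the share of all genes called. Without untreated Rescue, and likewise without Rescue with TNF, 0 of the 24 passed in any of the 4 comparisons, against 8.43% and 8.19% of all genes for KO against WT, 0% for both Rescue comparisons and 0.023% and 0.0229% for TNF. Without untreated WT the 4 counts were 2, 3, 0 and 0 (all genes 20.1%, 20.6%, 13.5% and 7.15%), and without WT with TNF the same (15.3%, 20.8%, 8.92% and 6.91%). Without KO with TNF they were 3, 4, 5 and 4 (25.4%, 16.5%, 34.9% and 28.5%), and without untreated KO 4, 1, 5 and 3 (30.9%, 19.2%, 33.2% and 26.5%).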

How the data were processed

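RNA from 6 libraries (SMARTER mRNA kit) was analysed, 1 per group. The authors deposited, per library, Psi as a fraction with estimated counts of reads per node, junction read counts, and RSEM expected counts and TPM per gene (RSEM per the submitters' processing notes, the version and the splicing tool and aligner not given in the sources used here). TPM were read but CPM from the expected counts are printed. Coordinates are GRCm38 with GENCODE vM21.

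Nodes of every type with 20 or more reads in all libraries and a mean Psi of 0.05 to 0.95 were fitted with limma 3.58.1 (R 4.3.3) on the log2 odds of Psi with 0.5 reads added, genotype and TNF additive, 2 residual degrees of freedom, Benjamini-Hochberg adjusted over all 26446 nodes; a call needed an adjusted p under 0.05 and a difference of 0.1 Psi. Groups were also called apart where every library of one lay at least 0.1 Psi beyond every library of the other. Expected counts were rounded and tested with edgeR 4.0.16 (quasi-likelihood, TMM, same design), with DESeq2 1.42.0 as an alternative. The scripts were tested on simulated data. Nodes named in the text are the 4 AL and 4 TE with the largest Psi difference of one sign in every level of the other factor (none passed limma), the known-ends list, and those said to be chosen afterwards. The members and lists were chosen with earlier results of these data known. Junction shares carry 95% Wilson intervals for counting error only.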

Additional observations from a re-analysis of the deposited data

How the results depend on the processing

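Grouping decided most. With the labels' groups 24 of 47 named Psi differences changed sign, and under the other alternatives none did. For KO against WT they became -0.262 (Ncam1), 0.0815 (Gna13), -0.1394 (Masp1), 0.1105 (Ttc17), -0.0905 (Cdc42), -0.1135 (Rpap2), 0.026 (Styk1), -0.0506 (Pik3r5), -0.101 (Snx12), 0.1155 (Lamp2), 0.5 (Parp6 and Arhgap45) and 0.0068 (Shprh), and that of Exosc7 vanished (0). For Rescue against KO they became 0.326 (Ncam1), 0.016 (Mospd2), 0.1391 (Masp1), -0.1455 (Ttc17), 0.0905 (Cdc42), 0.092 (Rpap2), 0.0853 (Pik3r5), -0.148 (Lamp2) and -0.5 (Fbxw17 and Parp6), and for TNF 0.0493 (Ppih). With those groups the weighted fit called 0 AL nodes for KO against WT and for Rescue against KO, and 0 cleavage genes passed edgeR in any comparison.

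The limma fit over all node types called 0 AL and 0 TE nodes in the 4 comparisons, also without any 1 library (0 to 0). AL counts for KO against WT were 10 by groups apart, 3 over junction types and 8 weighted; for Rescue against KO 8, 2 and 4; and for Rescue against WT 2 by groups apart. TE counts were 30, 33 and 1093 for KO against WT with 50 or more reads, with 100 or more and by groups apart, 18, 17 and 1119 for Rescue against KO, 27, 21 and 1107 for Rescue against WT, and 189 for TNF by groups apart. Without 1 library the weighted fit called 3 to 8 AL nodes for KO against WT and 3 to 6 for Rescue against KO, and without weights 3 and 2. Cleavage genes called without 1 library numbered 0 to 4 for KO against WT, 0 to 4 for Rescue against KO, 0 to 5 for Rescue against WT and 0 to 4 for TNF. The cause of these shifts was not tested. No paired analysis was possible because each group is 1 library and the labels carry no replicate numbers. AL nodes had a median of 72 reads, against 93 for cassette exons and 382 for TE nodes, and the part of depth in these counts was not tested.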
